A study of Mus musculus with 12 samples.

Results

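A CpG is a pair of cytosines, a plus-strand C and a minus-strand C 1 base to its right. The pairs described here are the autosomal CpGs of the mouse genome, mm9, at which both cytosines had 10 or more reads in the same sample. They were chosen by position and read number, not by methylation level. In at least 1 of the 12 samples 147291 CpGs qualified, of 4321664 autosomal CpGs with any read and 20364700 in the reference.

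The samples were oral soft tissue of female B6C3F1/J mice, and their methylation was measured by enhanced reduced representation bisulfite sequencing (ERRBS), in which DNA is cut with MspI, converted with bisulfite and sequenced from the ends of the fragments. There were 3 samples in each of 4 groups. DMSO was the vehicle control. DBP is the tobacco carcinogen dibenzo[def,p]chrysene, applied at 24 nmol into the oral cavity 3 times per week for 5 weeks to mice 8 weeks old, and tissue was taken 48 h later, counted from the last dose. The DBP agent group received DBP plus an agent that the labels call chemopreventive but leave unnamed, and the DBP BR group received DBP and a BR extract, also called a chemopreventive agent. No dose or schedule is given for either agent, and the dosing above is stated for the DMSO and DBP groups only. Buccal mucosa, floor of the mouth and soft tissue of the hard palate were pooled, so each value averages over epithelium, stroma and any other cells in them, and a methylation table holds no expression by which the tissue could be checked. The labels do not say whether the 3 samples of a group came from separate animals, so the tests measure the spread between these samples, which may be technical.

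The sequence CG reads the same on both strands, so a methylated CpG in a cell normally carries 5-methylcytosine on both of its cytosines. After replication the new strand starts without the mark. Uhrf1 recognises the site marked on its old strand and brings in the maintenance enzyme Dnmt1, which copies the methyl group to the new strand. Bisulfite turns unmethylated cytosine into uracil and leaves 5-methylcytosine, and the strands come apart before they are read. The plus and minus percentages of a pair therefore come from different molecules, and a single molecule methylated on 1 strand cannot be seen in them. In tissue with well kept methylation both strands should sample the same level, so the pair measures that level on either strand.

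The way MspI cuts sets how a pair is read. The enzyme cuts CCGG after its first C, and the CG in the middle of the site becomes the start of a read on each side. At such an MspI-site pair the plus strand is read from the fragment to the right and the minus strand from the fragment to the left, and the site's cytosine is the first base that each read reports. Another pair lies inside a fragment, and reads from the 2 ends of a fragment can reach the same CpG where it is short. Most other pairs of the deeper samples lay within that reach (104387 in DBP BR 1), and the rest did not (6681 in DBP BR 1, 2 to 39 in the DMSO and DBP samples). The 6 sites below are those whose values are plotted and described later in full, and each is shown with 36 bases on either side of CCGG, 5′ to 3′ on the plus strand of mm9. Capitals mark the MspI recognition sequence, whose central CG is the pair. They are in order the site in the coding exon of Socs1 (chr16:10784528-10784603), the intergenic site on chromosome 17 (chr17:39981456-39981531), the site in the coding exon of Ndufb8 (chr19:44629482-44629557), the site 80 bases from the start of Cyp4v3 (chr8:46418613-46418688), the site in 4931415C17Rik beside Tubgcp3 (chr8:12672314-12672389) and the intergenic site on chromosome 12 (chr12:96823810-96823885).
Socs1: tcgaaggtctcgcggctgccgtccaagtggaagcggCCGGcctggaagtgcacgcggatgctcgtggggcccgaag
Intergenic chromosome 17: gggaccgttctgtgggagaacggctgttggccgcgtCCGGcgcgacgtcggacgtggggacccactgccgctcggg
Ndufb8: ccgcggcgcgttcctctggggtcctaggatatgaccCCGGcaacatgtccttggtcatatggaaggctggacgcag
Cyp4v3: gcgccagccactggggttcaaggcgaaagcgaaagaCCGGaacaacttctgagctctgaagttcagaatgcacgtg
Tubgcp3: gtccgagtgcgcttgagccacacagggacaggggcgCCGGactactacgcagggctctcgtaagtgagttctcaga
Intergenic chromosome 12: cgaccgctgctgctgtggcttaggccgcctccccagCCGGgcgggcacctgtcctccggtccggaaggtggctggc
These windows hold between 4 and 11 further CpGs.

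Few CpGs were read on both strands. The DMSO samples held 1364, 652 and 218 pairs and the DBP samples 949, 1638 and 1775. The DBP agent samples held 31663, 17928 and 6841 and the DBP BR samples 136608, 6435 and 13157. Sequencing depth differed between the groups, with 3287367 to 7974299 CpG calls per sample in DMSO and DBP and 16908728 to 78889043 in the other 2 groups, and every comparison between them below carries that difference. Pairs made up 0.265% to 0.746% of the CpGs with 10 or more reads on any strand in DMSO and DBP, and 1.55% to 14.7% in DBP agent and DBP BR. In 114131 cases, 77.5% of all pairs, the CpG qualified in 1 sample only, and 39 pairs qualified in all 12. MspI-site pairs were 35789 of the 147291. They were 90.8% to 98.2% of the pairs of each DMSO and DBP sample. DBP BR 1, the most deeply read sample, stood apart with 18.7%, and its calls ran to base 61 of a read where those of the other 11 samples stopped at base 51.

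The cytosines of the MspI sites had levels unlike those of the CpGs read next to them. Over all site cytosines with 10 or more reads, on either strand, the mean level lay between 58.5% and 63.6% in the 12 samples, and between 32.4% and 41% of the cytosines had an intermediate level of 25% to 75%. CpGs read at bases 3 to 51 averaged 18.5% to 27.2%, and 8.18% to 12.9% of them were intermediate. These sets were not matched by locus, so their levels do not compare a site with CpGs of its own reads. A comparison with the next CpG does so. Where the next CpG on the same strand was below 5%, with a mean of 0.202%, the site's cytosine was at 27.3% ± 2.15 (SD, n = 12). The lowest sample stood at 25.1% and the highest, DBP agent 1, at 33.6%. Both strands gave 27.3%. Even where the next CpG lay 3 to 5 bases away, the site averaged 22.7% to 31%. Where the next CpG was above 95%, with a mean of 99.5%, the site was at 90.9% ± 0.852 (SD, n = 12). Site and neighbour thus differed more where the neighbour was below 5% than where it was above 95%. The cause of these levels was not tested.

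**Figure D1:**
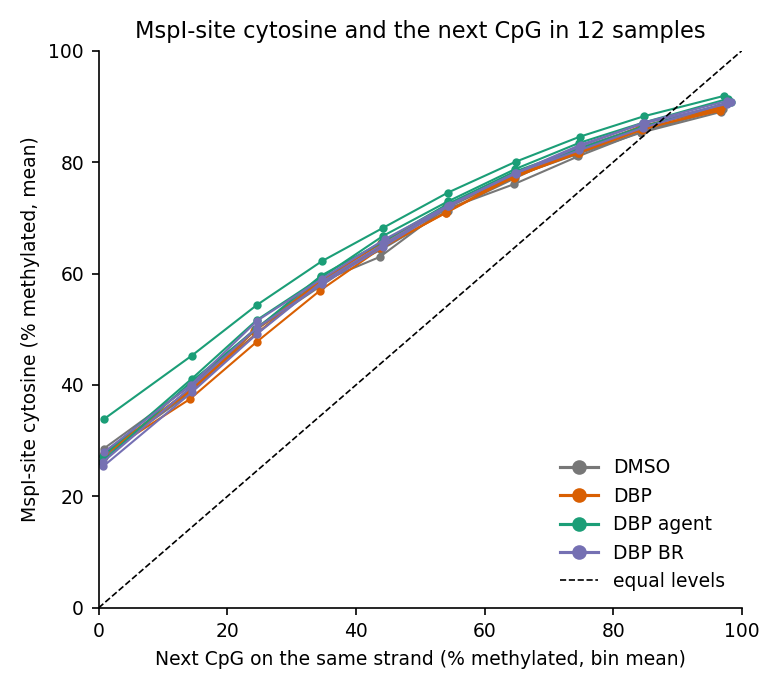
Mean methylation of the MspI-site cytosine (vertical axis, %) against the level of the next CpG read on the same strand (horizontal axis, %), 1 line for each of the 12 samples, with the diagonal where both would be equal. At neighbours below 5% the site averaged 27.3% over the 12 samples, and above 95% it averaged 90.9%.

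The strands of a pair followed each other within every sample. Across the pairs of a sample, Pearson r between the plus and the minus percentage ran from 0.711 to 0.901, a description across pairs that are not independent. In MspI-site pairs r was 0.659 to 0.792. Neither strand was higher in general, since the mean of plus minus minus over all pairs lay between -0.485 and 0.962 points. The mean absolute difference ran from 6.49 points in DBP BR 1 to 19 in DBP BR 2. Between 41.8% and 79.1% of pairs had strands within 10 points of each other.

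A small share of pairs had strands over 50 points apart. In DMSO 1, 2 and 3 it was 2.20% (95% Wilson interval 1.54 to 3.12), 3.83% (2.61 to 5.6) and 2.75% (1.27 to 5.87). In DBP 1, 2 and 3 it was 2.53% (1.71 to 3.73), 2.26% (1.64 to 3.10) and 2.82% (2.14 to 3.69). In DBP agent it was 3.16% (2.97 to 3.36), 4.47% (4.18 to 4.79) and 7.57% (6.97 to 8.22). In DBP BR it was 1.82% (1.75 to 1.89), 7.29% (6.68 to 7.95) and 4.23% (3.90 to 4.59). The intervals describe counting error alone, because PCR copies of 1 molecule cannot be told from separate molecules in these counts. Random drawing of reads from a level shared by both strands would give 0.0135% to 0.244%. DBP BR 1 had 2481 such pairs, 1225 with the plus strand higher and 1256 with the minus strand higher, where counting alone would give 18.4. DBP agent 1 had 1001, 500 and 501 in the 2 directions. By Fisher's exact test per pair, with Benjamini-Hochberg adjustment within the sample, 0.316% to 1.07% of pairs in DMSO and DBP and 4.26% to 8.99% in DBP agent and DBP BR had unequal strands at q below 0.01. That count rises with depth, which was a median of 14 to 17 reads per strand in the first 2 groups and 19 to 46 in the others.

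**Figure D2:**
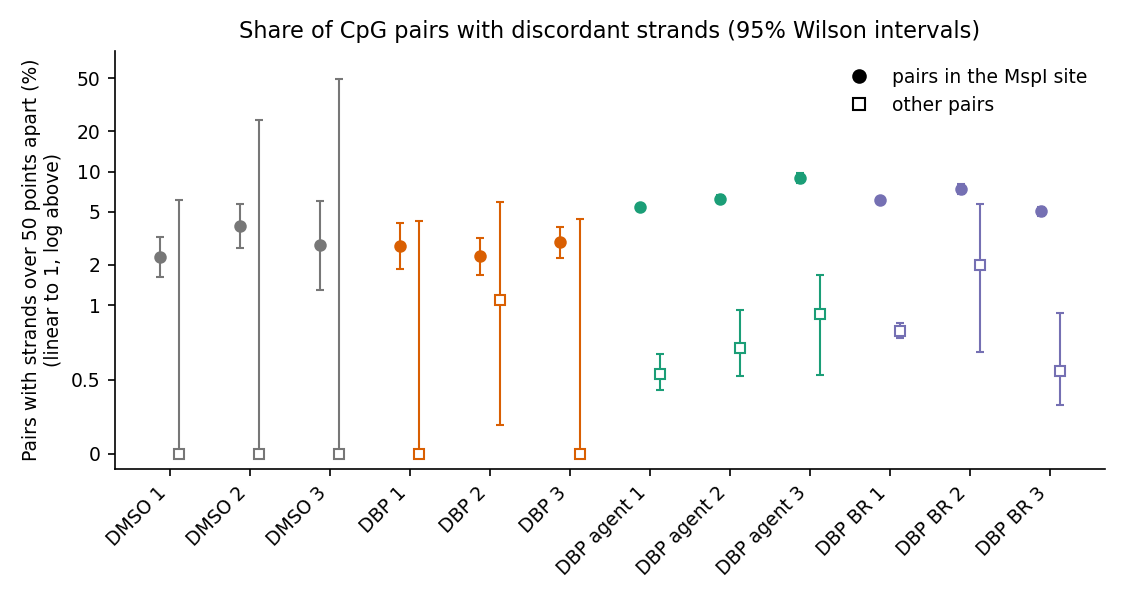
Share of pairs whose strands differed by more than 50 points in each of the 12 samples (vertical axis in %, linear to 1 and logarithmic above), for MspI-site pairs and other pairs, with 95% Wilson intervals. MspI-site pairs lay between 2.30% and 8.93%, and other pairs between 0% and 2.01%.

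Most widely split pairs were in MspI sites. MspI-site pairs exceeded the other pairs of the same sample by 4.13 ± 1.84 points in the share over 50 points (SD, n = 12), with means of 4.68% and 0.557% (exact sign-flip permutation test over samples, two-sided, p = 0.000488, the smallest it can give), and did so in 12 of 12 samples. Their levels differed as well. Between 39.2% and 56.7% of MspI-site pairs had a merged level, the percentage over the reads of both strands, of 25% to 75%, against 2.40% to 25% of other pairs. Where both strands have like depth, a pair close to 0% or 100% cannot have strands far apart. With unequal depth the merged level follows the deeper strand, and such a pair can be split. Among pairs of 25% to 75% alone the difference between the kinds was -0.524 ± 8.02 points (n = 12, exact sign-flip permutation test, p = 0.827), with MspI-site pairs higher in 7 of 12 samples. Each sample weighed equally in both tests, though DMSO 3 had 214 MspI-site pairs of 218 and DMSO 2 640 of 652. Shares of other pairs rest on few pairs there, so this p-value does not show that the kinds are alike. DBP BR 1, with the most pairs outside MspI sites, gave 6.11% in CCGG and between 0.503% in GCGC and 1.58% in ACGT for the other CpG contexts.

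The split pairs were seldom fully methylated on 1 strand and unmethylated on the other. In MspI sites the higher strand of a pair over 50 points had a median of 67.9% to 80% by sample and the lower strand 9.09% to 15.4%. Strands above 90% and below 10% together made up 0% to 11% of these pairs. By merged level, 4.62% to 19.1% of pairs between 25% and 75% were over 50 points apart, and at most 0.908% of those above 75%.

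The CpGs on each side of an MspI site gave a view of its surroundings. In MspI-site pairs whose next CpGs were both read and both below 25%, the pair averaged 25.2% to 33.9%, and 2.19% to 10.3% were over 50 points apart. These were 56.5% to 76.1% of the pairs with both neighbours read and 66.2% to 87.5% of those over 50 points. With both neighbours above 75% the pair averaged 88.7% to 91.9%, and none was over 50 points apart in DMSO and DBP and 0.561% to 2.03% in DBP agent and DBP BR. Where 1 neighbour was below 25% and the other above 75%, which held for 540 pairs summed over the 6 DBP agent and DBP BR samples, 23.4% to 35.6% were over 50 points apart. At those boundaries the strand read beside the higher neighbour was the higher one by 21.4 to 33.4 points on average. These boundaries were few, and most split pairs lay between low neighbours on both sides.

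Pairs near gene starts were split more often in most samples. A promoter here is the 1000 bases on either side of a protein-coding start. The share over 50 points was 4.53% in promoters and 3.05% elsewhere, a difference of 1.47 ± 1.68 points (SD, n = 12, exact sign-flip permutation test, p = 0.0137), with promoters higher in 11 of 12 samples. In the 6 DBP agent and DBP BR samples alone it was 0.455 ± 1.58 (exact sign-flip permutation test, p = 0.4375). Outside MspI sites, over the 12 samples, it turned to -1.21 (exact sign-flip permutation test, p = 0.0156). There the DMSO samples, DBP 1 and DBP 3 had no pair over 50 points apart, and DBP 2 had 1. Samples without such a pair add nothing to that test.

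In DBP BR 1 the strand difference moved with the length of the fragment. Its reads were long enough to reach the far end of fragments up to about 62 bases, and there the read that ends at an MspI site also reports the site's cytosine on the strand whose 3′ end lies at the cut, the base that end repair fills in. Each site has a fragment on either side, and each side was counted on its own. At the 3112 sides with fragments of 53 to 62 bases the strand ending at the site was below the strand starting there by 7.53 to 21.6 points, depending on the length. At 62 bases the strand ending at the site averaged 20.3% and the strand starting there 41.8% (717 sides). At 63 bases they averaged 40.6% and 39% (286 sides), and over lengths of 63 to 80 bases the difference stayed between -2.81 and 1.65 points. Fragments of 52 bases or fewer went the other way, with the strand ending at the site higher by 12.3 points (1514 sides). MspI-site pairs beside a fragment read to its end were over 50 points apart in 18.0% of 3575 cases, against 4.17% of 21965 others. Other samples had few such sides. DBP agent 1 had between 14 and 23 sides in each of 4 classes of length from 53 to 62 bases, with the strand ending at the site lower by 5.37 to 19.5 points, and 13 sides at 63 bases, lower by 13.6 points. In DBP agent 2 it was higher by 3.57 points at 57 to 59 bases (10 sides), and in DBP BR 3 lower by 1.96 points at 53 to 56 bases (11 sides). Beside fragments of 52 bases or fewer, 6 other samples had 12 to 132 sides each and differences of -6.91 to 8.28 points. The part of filled-in bases in these values was not tested.

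The strand difference of a pair recurred only in part from sample to sample. For MspI-site pairs shared by a pair of samples, r of plus minus minus between the samples was 0.103 to 0.397 over the 66 combinations of samples. Its median was 0.263 within groups and 0.267 between groups.

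Strands were then compared over samples by logistic regression with a term for each sample, at q below 0.01 and a difference of pooled percentages over 25 points. Of the 39 pairs read in all 12 samples, 4 were called (10.3%), 2 with the plus strand higher (5.13%) and 2 with the minus strand higher (5.13%). limma on the differences per sample gave adjusted p-values of 1.36e-05 for the chromosome 17 site and 0.000232 for each of the other 3. The number called was 2 without DBP agent 1 and 8 without DMSO 3, out of other sets than the 39, since pairs then needed reads only in the samples left. Of the 39 pairs, 8 lay within 2330 bases of chromosome 17 (chr17:39980401-39982730), the called one among them. They had a median depth of 465 reads, up to 10540, against 48 at the other 31, and whether reads of more than 1 genomic copy are counted there was not tested.

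Socs1, an inhibitor of JAK/STAT signalling, had the plus strand higher in 12 of 12 samples at a pair in its coding exon, 1064 bases from its start (chr16:10784565-10784566, depth 13 to 143 reads per strand). In DMSO the plus and minus strands were at 33.3% and 27.3%, 32.1% and 10.3%, and 46.2% and 23.1%. In DBP they were at 65.3% and 21.2%, 37.1% and 31.4%, and 34.2% and 23.5%. In DBP agent they were at 60.1% and 37.4%, 26.5% and 6.06%, and 59.2% and 26.9%, and in DBP BR at 64.1% and 7.14%, 27.1% and 5.41%, and 64.5% and 10.8%. The difference was 26.6 ± 17.1 points (SD, n = 12), and the groups overlapped. The fragments on either side, of up to 205 bases, were both too long to be read to their ends. The next CpG to the right on the plus strand was at 0% in all 12 samples. The next to the left on the minus strand was at 0% except for 2.96% in DBP agent 1.

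The pair on chromosome 17 (chr17:39981493-39981494), intergenic in the annotation used, had the minus strand higher in 12 of 12 samples, by 26.7 points on average (SD 10.5). It belongs to the deeply read cluster above, with 63 to 10540 reads per strand, and whether its levels average over several genomic copies was not tested. Its nearest annotated start is that of AY036118, 4279 bases away. The next CpG to the right was at 7.26% to 15.2%, and the next to the left at 4.55% to 53.2%. The plus strand stayed between 29.5% and 43.4% (median 39.9%) and the minus strand between 45.2% and 73.8% (median 67.5%), with no overlap between the strands. DBP BR 1 had the smallest gap, 43.4% and 45.2%. This pair and a neighbour at chr17:39981066-39981067 alone had merged levels of 40% to 60% in all 12 samples, and at the neighbour, with 40% to 47.3%, the strands differed by -5.74 ± 6.34 points (SD, n = 12). Atp1b1, the beta subunit of the sodium pump, had the minus strand higher in 11 of 12 samples at a pair in its untranslated region (chr1:166388085-166388086), 401 bases from its start, by 25.8 points on average (SD 16.3). In DMSO 3 its strands were equal at 30%. The pair in the untranslated region of 8430410A17Rik (chr6:87864382-87864383) had the plus strand higher in 11 of 12, by 29.6 ± 19.4 points, and the minus strand higher in DBP agent 2 with 19.8% and 30.9%.

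Pairs shared by the 6 deeper samples, DBP agent and DBP BR, gave a larger set, which was added after the values had been seen. Of 1291 such pairs 99 were called (7.67%), 51 with the plus strand higher (3.95%) and 48 with the minus strand higher (3.72%). All 99 were MspI-site pairs, as were 1203 of the 1291. Of the called pairs 74 (74.7%) lay in promoters, against 677 (52.4%) of those tested, and 82 had both neighbours below 25%, against 679 of those tested. In 94 of the 99 the merged level was between 25% and 75%, against 599 (46.4%) of the 1291 tested. Only 65 of the 99 had the same sign in all 6 samples, as did 169 of the 1291. Over samples the strand difference of a called pair had a median SD of 18.4 points, against 16.0 over all pairs tested. The spread between samples was thus wide beside the differences themselves. A test that takes this spread into account called 1 pair at an adjusted p below 0.01, both as an F test with overdispersion and in limma. At an adjusted p below 0.05 limma kept 51 of the 99, 49 of them over 25 points in the mean over samples, and at an unadjusted p below 0.05 it kept 92 of the 99 and 255 of the 1291. The count of 99 rose to 191 without DBP BR 1 and to 216 without DBP BR 2. Pairs then needed reads only in the samples left, so these counts are not out of the same 1291 and show no higher share.

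The 1 pair called by all 3 tests was intergenic on chromosome 12 (chr12:96823847-96823848), 34181 bases from the nearest annotated start, between fragments of 169 and 21 bases (limma adjusted p = 0.000126). The plus strand was at 6.67%, 4.26% and 7.14% in DBP agent and at 5.46%, 14.3% and 27.5% in DBP BR. The minus strand was at 92.9%, 87.2% and 96.4% and at 92.6%, 100% and 94.9%. The strands did not overlap and were 83.1 ± 7.98 points apart (SD, n = 6). The next CpG to the left was at 85.7% to 100%, and the next to the right was read only in DBP BR 1, at 22.8%. It had no value in DMSO or DBP. By position the minus strand, the higher one, is that ending at the site for the fragment of 21 bases. Outside DBP BR 1 the plus strand had 21 to 165 reads at the site and 0 at the next CpG to the right. Those plus reads thus did not run on into the fragment of 21 bases, unlike the reading of MspI sites described above. Where they started was not tested. Without pairs beside a fragment of 62 bases or fewer, which leaves out this pair, 97 calls were made.

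The other called pairs named here are those of smallest p in each direction with the same sign in every sample. They lay at gene starts with 1 exception. Ndufb8, a subunit of respiratory complex I, had the plus strand higher in its coding exon (chr19:44629519-44629520) in 10 of 10 samples with values, by 45 ± 18.6 points. Its plus strand was at 53% to 93.3% and its minus strand at 9.57% to 37.5%, which do not overlap. The next CpGs on both sides were at 0% in these samples. The pair 80 bases from the start of Cyp4v3, a cytochrome P450 gene (chr8:46418650-46418651), had the plus strand at 50.0% to 75% and the minus strand at 0% to 37.0% in 10 of 10 samples, 46.9 ± 14.1 points apart. There the next CpGs were at 0% to 3.57%.

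Cdk8, the Mediator kinase (chr5:147042837-147042838), had the plus strand higher by 42.6 ± 15.4 points in 8 of 8 samples. Rpusd3, a pseudouridine synthase gene (chr6:113369444-113369445), had it higher by 43.9 ± 15.9 points in 8 of 8. Edem2, which acts in the disposal of misfolded proteins from the endoplasmic reticulum (chr2:155555063-155555064), had it higher by 44.9 ± 15.7 points in 7 of 7. These pairs were named for having 1 sign in all samples with 10 reads per strand, and samples with fewer reads went both ways at Rpusd3 and Edem2. Cdk8 lay beside a fragment of 31 bases, and its minus strand, the one ending at the site, was the lower. The next CpGs were at 0% to 1.86% at Cdk8 and at 0% at Edem2. At Rpusd3 the left one was at 0% to 0.935%, and the right one was not read.

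With the minus strand higher, the pair in 4931415C17Rik, 103 bases from the start of Tubgcp3, a gamma-tubulin complex gene (chr8:12672351-12672352), had values in 11 samples. Its plus strand was at 31.2% and 20.8% in DMSO 1 and 2, at 11.8%, 10.5% and 6.25% in DBP, at 19.5%, 20.7% and 5.26% in DBP agent and at 25%, 10.4% and 26.3% in DBP BR. Its minus strand was at 66.7% and 57.1%, at 83.3%, 63.3% and 56.7%, at 83.0%, 69.9% and 78.4% and at 77.8%, 45.9% and 59%. The minus strand was higher by 50.3 points on average (SD 14.5) in 11 of 11, and the ranges of the strands were apart. The next CpG to the right, on the plus strand, was at 0%, and the next to the left, on the minus strand, at 14.3% to 82.1%. Mctp1, which codes for a C2-domain protein (chr13:76521671-76521672), had a difference of 49.7 points in the same direction in 7 of 7 samples (SD 17.7). Csf2ra, a receptor subunit for GM-CSF (chr19:61301699-61301700, coding exon), had 30.9 points in 10 of 10 (SD 19.1) at a merged level of 52.4% to 74.8%.

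**Figure D3:**
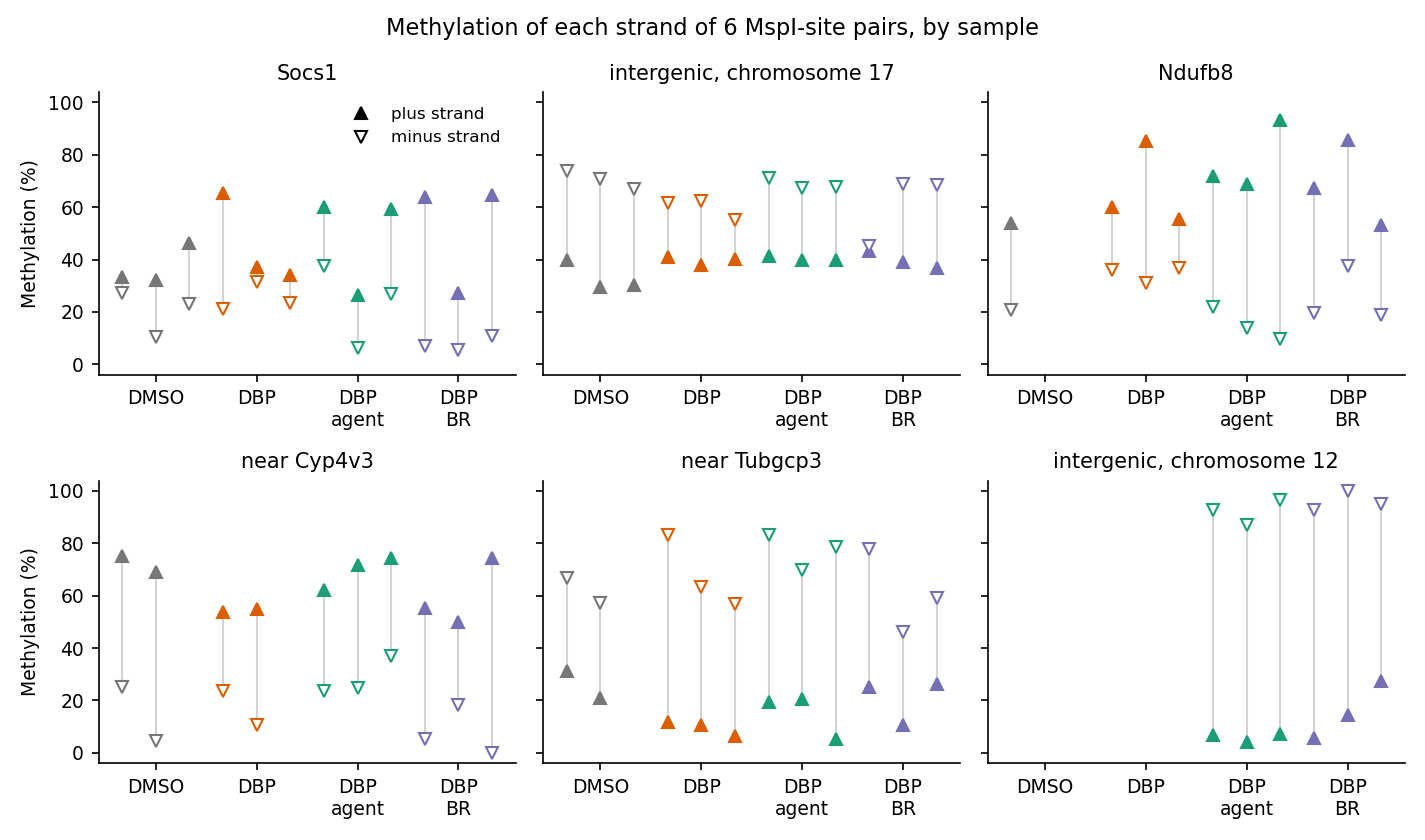
Percent methylation of the plus and the minus strand in each sample with 10 or more reads on both (vertical axes, %), for the pairs in Socs1 and Ndufb8, near Cyp4v3 and Tubgcp3, and the intergenic pairs on chromosomes 17 and 12. In all 6 panels 1 strand is above the other in every sample shown, by means of 26.6 points in Socs1 to 83.1 points on chromosome 12.

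The DMSO and DBP samples, which had no part in calling the 99 pairs, gave a separate measurement of them. Values were present for 72, and in 70 of these (97.2%) the mean strand difference had the direction called in the other 6 samples. Of the 209 single values 191 (91.4%) had it. The median difference in the called direction was 25 points, against 32.4 points in the 6 samples that called them. Pairs over 10 points apart in the 6 samples and not called kept the direction in 178 of 243 cases (73.3%), and all tested pairs in 554 of 918 (60.3%) with a median of 3.93 points.

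**Figure D4:**
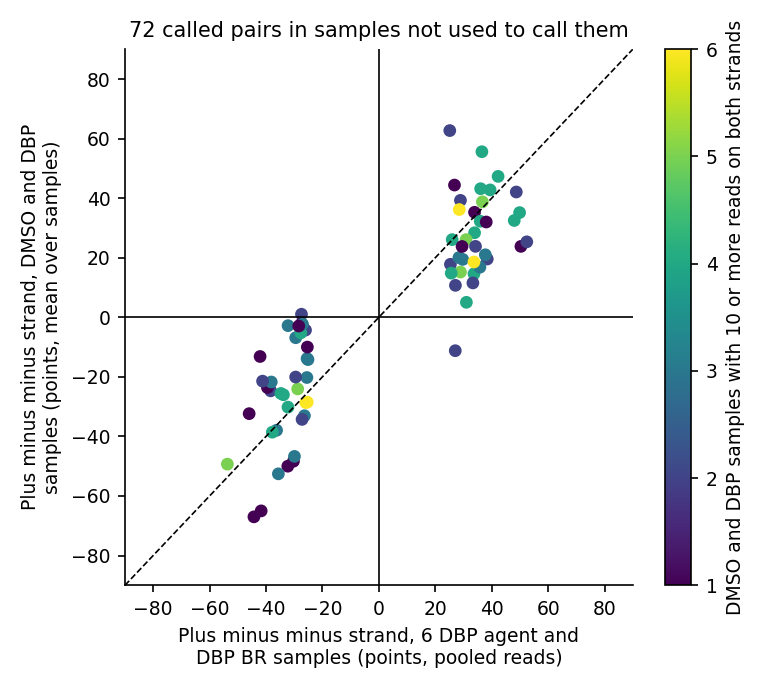
Plus minus minus strand in points, for the 72 called pairs with values in DMSO or DBP samples: horizontal axis, pooled over the 6 DBP agent and DBP BR samples that called them, and vertical axis, mean over the DMSO and DBP samples. Of the 72 points 70 lie in the quadrants where both have the same sign, and the dashed line marks equal values.

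The first question of the design was whether strand agreement differed between the groups. The share of pairs over 50 points apart was 2.93% ± 0.832 in DMSO, 2.53% ± 0.279 in DBP, 5.07% ± 2.26 in DBP agent and 4.45% ± 2.74 in DBP BR (SD, n = 3 each). The difference DBP minus DMSO was -0.394 points (exact permutation test, two-sided, p = 0.7, adjusted over the 3 comparisons 0.7). DBP agent minus DBP was 2.53 points (exact permutation test, p = 0.1, adjusted 0.3) and DBP BR minus DBP 1.91 points (exact permutation test, p = 0.4, adjusted 0.6). Single samples weighed on both: without DBP agent 3 the first was 1.28, and the second was 0.490 without DBP BR 2 and 3.23 without DBP BR 1. Among pairs at 25% to 75% they were 8.03 and 7.10 points (exact permutation test, p = 0.1 for each). With 3 samples against 3 the smallest p is 0.1, and the DBP samples serve in both of the latter comparisons. In MspI-site pairs alone the means were 3.00% ± 0.822, 2.69% ± 0.324, 6.85% ± 1.85 and 6.18% ± 1.19, all samples of DBP agent and DBP BR lying above all of DBP (exact permutation test, p = 0.1, adjusted 0.15, for each).

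Pairs and depth differed between these groups, so the shares were also taken at shared pairs. At the 471 pairs shared by the DBP and DBP agent samples, the share was 1.98% ± 0.490 and 4.10% ± 3.26 (exact permutation test, p = 0.3), with DBP agent samples at 1.91%, 2.55% and 7.86%. At the 325 pairs shared by DBP and DBP BR it was 2.15% in each DBP sample and 3.18% ± 0.641 in DBP BR (exact permutation test, p = 0.1). At the 66 pairs shared by DBP and DMSO it was 0.505% ± 0.875 and 1.01% ± 0.875 (exact permutation test, p = 1). Median depth at the 471 and 325 pairs was 20 to 23 reads in DBP, 48 or more in DBP agent and 42 to 83 in DBP BR. With each strand thinned to 10 reads, the 471 pairs gave 5.29% ± 2.60 in DBP agent and 2.50% ± 0.166 in DBP, a difference of 2.79 points, and the 325 pairs gave 4.36% ± 0.332 in DBP BR and 2.49% ± 0.294 in DBP, a difference of 1.87 points (exact permutation test, p = 0.1 for each, SD, n = 3). All MspI-site pairs thinned in this way gave 7.21% in DBP agent, 6.67% in DBP BR and 2.71% in DBP. Before thinning the differences were 2.12 points at the 471 pairs and 1.03 points at the 325 pairs. In all MspI-site pairs they were 4.16 and 3.50 points before thinning and 4.50 and 3.96 points after it.

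The strand difference of single pairs was then compared between groups. A strand by group term, at q below 0.01 and over 25 points, was called at 0 of 66 pairs for DBP against DMSO (0.0%), where 8 had an unadjusted p below 0.05 and the F test and limma also called 0. The smallest p of that comparison was at the chromosome 17 site, where the strand difference was -19.5 points in DBP and -33.0 in DMSO, pooled over reads (q = 0.0091, under 25 points). A pair close by (chr17:39982729-39982730) followed, and then Gcn1l1 (chr5:116033755-116033756) with 11.9 points in DBP and -9.10 in DMSO (q = 0.280 for each). It was called at 7 of 471 for DBP agent against DBP (1.49%) and at 3 of 325 for DBP BR against DBP (0.923%), and at 0 in both by the F test with overdispersion and by limma, with 105 and 90 at an unadjusted likelihood ratio p below 0.05. For DBP BR against DBP the smallest p-values stood at pairs with a change under 25 points, among them Ankrd13b (chr11:77291249-77291250) and Pigq (chr17:26073920-26073921), and so were not calls.

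Ppp1r7, a regulatory subunit of protein phosphatase 1 (chr1:95240214-95240215), had strands at 25% and 43.8%, 50.0% and 29.4%, and 23.1% and 33.3% in DBP. In DBP agent they were at 6.35% and 57.5%, 25% and 45.7%, and 0% and 64.6%, the minus strand higher in all 3. Itpk1, an inositol phosphate kinase gene (chr12:103943370-103943371), had the minus strand higher in all 3 DBP samples, with 14.3% and 57.1%, 7.41% and 20%, and 17.9% and 33.3%. In DBP agent it had 28.0% and 6.00%, 27.9% and 27.6%, and 10.3% and 0%.

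A group difference in level can also be looked at once on each strand. For DBP against DMSO no pair of the 66 was called on the plus strand, the minus strand or both strands merged (0.0% each). For DBP agent against DBP 2 were called on the plus strand (0.425%), 5 on the minus strand (1.06%) and 0 with strands merged (0.0%). For DBP BR against DBP 3 were called on the plus strand (0.923%), 4 on the minus strand (1.23%) and 1 with strands merged (0.308%). In each comparison 0 pairs were called on both strands in 1 direction (0.0%). Across pairs, the group difference of the plus strand and that of the minus strand had r of 0.0606, 0.0131 and 0.0849 in the 3 comparisons, a description across pairs. The median absolute group difference was 4.33 to 5.71 points on single strands and 2.99 to 4.0 with strands merged.

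The methods merge both strands of a CpG. Recomputing the comparison of DBP with DMSO as the methods describe it, with strands merged, left 52424 CpGs present in all 6 samples. Of these 25465 (48.6%) were read on the plus strand only in all 6 and 25773 (49.2%) on the minus strand only. Both strands were read in some of the 6 at 1108 (2.11%). They were read in all 6 at 57, fewer than the 66 above because the deepest cytosines were removed. The comparison called 30 sites (0.0572%), 15 read on the plus strand only (0.0589% of such CpGs) and 15 on the minus strand only (0.0582%). No called site therefore has a value on its other strand in these 6 samples at 10 or more reads, which also holds for nearly all CpGs tested.

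Gene groups were described by their pairs in or within 5 kb of the gene. Imprinted genes carry methylation on 1 parental allele, so their controlling CpGs sit at intermediate levels on both strands. In DBP BR 1 the 277 pairs of the imprinted list had an intermediate level in 25.3%, against 14.0% of all 136608 pairs, and 7 were over 50 points apart. Over the 12 samples the intermediate share of the imprinted list had a median of 66.7%, with as few as 1 pair in a sample, against 40.1% of all pairs. Of the 39 pairs read in all 12 samples none belonged to the imprinted list at 25% to 75%. All 5 imprinted-list pairs read in the 6 deeper samples were MspI-site pairs, and none was a strand call. Of all 1291 pairs tested there 7.67% were called, so 5 pairs are too few to show a difference. The pair in Igf2, the insulin-like growth factor (chr7:149851458-149851459), had a merged level of 36.4% to 78.4% and a strand difference of 10.8 ± 25.5 points. Those in Rasgrf1 (chr9:89805099-89805100), Grb10 (chr11:11937279-11937280) and Commd1 (chr11:22872992-22872993) had strand differences of 5.70 ± 12.1, -4.18 ± 8.02 and 15.6 ± 15.6 points, and the one near Dlk1 (chr12:110688614-110688615) had 0.401 ± 17.5. The SD exceeded the size of the difference at each except Commd1, where they were equal to the digits printed. By the likelihood ratio test over the 6 deeper samples, Commd1 and Igf2 had q of 3.93e-06 and 0.00177. Their pooled differences of 17.4 and 16.8 points were under the 25 points of a call.

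The writers, readers and erasers of CpG methylation, among them Dnmt1 and Uhrf1, had 262 pairs in DBP BR 1, of which 3 were over 50 points apart and 10.7% were intermediate. Housekeeping genes had 179 pairs with 3 over 50 points and 10.6% intermediate. Genes of oral epithelium, such as Krt5 and Krt14, had 200 with 1 and 18.5%. The 9 genes that the study picked from these samples for RT-PCR had 135 pairs with 2 over 50 points and 14.1% intermediate, which is no independent evidence on them. Over all pairs of that sample 1.82% were over 50 points apart.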

How the data were processed

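The authors trimmed reads with Trim Galore 0.3.3, mapped them to mm9 and called CpG methylation with Bismark 0.10.1 (DMSO and DBP as the methods state, all samples as the submitters' processing notes list). They deposited, for each cytosine, the counts of methylated and unmethylated reads and the percent methylated, without normalization or coverage filter. The deposited percent was recomputed from the counts. For the DMSO and DBP samples the methods give 50 ng of DNA, MspI fragments of 70 to 320 bp, 18 PCR cycles and reads of 50 bases. Depth ran from 3287367 to 78889043 calls per sample.

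CpG pairs, MspI fragments and CCGG sites were located in the mm9 reference, and genes in its annotation. Values were calculated with Python 3.11.15, NumPy 2.4.6, pandas 2.3.3, SciPy 1.17.1 and numba 0.67.0, and with limma 3.58.1 in R 4.3.3, and plotted with Matplotlib 3.10.9. A pair needed 10 reads on each strand. Calls came from logistic regression, by its likelihood ratio test and with q-values after Benjamini-Hochberg, at q below 0.01 and over 25 points, with an F test for overdispersion and limma on percentages per sample as alternatives. Shares were compared over samples by exact permutation tests. The regression was tested on simulated reads drawn without spread between samples, so that test does not cover such spread. Only the groups compared entered a fit, with a term for each sample where strands were compared.

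The members and gene lists were chosen with earlier results of these data known. Pairs named were the strand calls with 1 sign in all 12 samples (up to 5 each way, 1 per fragment), pairs at 40% to 60% in all 12, imprinted-list pairs at 25% to 75% in all 12, and per comparison the 3 smallest p-values of the strand by group term and calls on both strands. The pairs in Atp1b1 and 8430410A17Rik, the calls in the 6 deeper samples and those of the strand by group term beyond these 3 were named after their values were seen. Of the 38 imprinted genes Kcnq1ot1, Snurf and Peg13 had no autosomal annotation. Sex chromosomes were not used, and some pairs that the rule names are not reported here.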

Additional observations from a re-analysis of the deposited data

Results flagged for a closer look

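The strand difference, plus minus minus, differed between groups at 10 pairs by the likelihood ratio test of the strand by group term, which treats reads as independent. The F test with overdispersion and limma called none of them. Described here are 8 of the 10. Those for DBP agent against DBP, each given as the strand difference in DBP agent minus that in DBP, pooled over reads, come first.

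In promoters lay Itpk1 and Ppp1r7, whose values in each sample are given above. The difference was 39.82 points at Itpk1 on chromosome 12 and -40.30 points at Ppp1r7 on chromosome 1. In an intron of Epha8, an Eph receptor gene, it was -25.78 points (chr4:136502366-136502367). The Epha8 strands were at 77.3% and 98.1%, 83.8% and 92.6%, and 90.9% and 100% in DBP agent, and DBP 1 held most of the contrast with 100% and 57.9%.

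At Srcin1, an inhibitor of SRC kinase, it was 46.22 points (chr11:97381357-97381358). DBP agent 3 had 65.4% and 4.55% there, and DBP agent 1 had 67% and 61.1%. At Dapk3, a protein kinase gene, it was 44.83 points (chr10:80655375-80655376), from 54.7% and 11.5% in DBP agent 1 and 63% and 21.9% in DBP agent 2, whereas DBP agent 3 had 8.33% and 13.7%. At Ergic1 it was -45.35 points (chr17:26758500-26758501), with 20.9% and 97.8% in DBP agent 3 and 52.5% and 39% in DBP agent 1.

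Those for DBP BR against DBP lay in promoters. At Barx2, a homeobox gene, the difference was 35.15 points (chr9:31720490-31720491), with strands at 26% and 31.6%, 46.2% and 37.0%, and 19.4% and 6.52% in DBP BR and 5.88% and 16.7%, 0% and 36.4%, and 0% and 50.0% in DBP. At Eps15l1, an endocytosis gene, it was 26.47 points (chr8:74945357-74945358) and rested on DBP BR 3 with 74.0% and 5.93%, the other 2 DBP BR samples having 0% and 5.00%, and 12.7% and 11.8%.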

How the results depend on the processing

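Of 302 alternative values 245 kept their direction, call or size, 49 moved, 3 lost their call and 5 reversed. Alternatives limited to MspI-site pairs, to shared pairs or to the 6 deeper samples were added after seeing the data. The share over 50 points (3.74% over 12 samples) was 5.78% at 5 reads, 0.557% without MspI-site pairs, 20.2% for differences over 25 points and 9.42% for pairs of 25% to 75%. The mean absolute difference (14.7 points) was 5.62 without MspI-site pairs and 19.6 in MspI-site pairs thinned to 10 reads. The strand correlation (0.788) was 0.907 without MspI-site pairs, 0.724 in them alone and 0.674 in them thinned.

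DBP minus DMSO (-0.394) reversed to 0.688 at 20 reads (exact permutation test, p = 0.7), to 0.362 without MspI-site pairs (exact permutation test, p = 1) and to 0.059 without DMSO 2, and leaving out single samples gave -0.758 to 0.059. Promoter minus other pairs (1.47) was 0.700 at 5 reads, 1.43 at the pairs of all 12 samples, 0.455 in the 6 deeper samples and -1.21 without MspI-site pairs. MspI-site minus other pairs (4.13) was -0.524 at levels of 25% to 75%.

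Strand calls in 12 samples (4) were 21 at 5 reads, 1 at 20 reads, 0 without MspI-site pairs, 13 over 10 points, and 2 to 8 when leaving out samples. Those in the 6 deeper samples (99) were 298, 17, 0 and 357 under the same settings, 1 by the F test and 1 by limma, and 94 to 216 when leaving out samples. Strand by group calls for DBP against DMSO (0) were 1 over 10 points. For DBP agent against DBP (7) they were 11 at 5 reads, 0 at 20 reads, 0 without MspI-site pairs, 14 at q below 0.05, 0 by the F test, 0 by limma and 0 to 25 when leaving out samples. For DBP BR against DBP (3) they were 11, 0, 0 and 6 under the same settings, 14 over 10 points, 0 by the F test, 0 by limma and 4 to 16 when leaving out samples. Calls on both strands (0) were 0 to 1 when leaving out samples for DBP agent and 1 over 10 points for DBP BR. The cause of these changes was not tested, except that settings with fewer reads or samples test other sets of pairs.

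Samples of the same number were not paired in the labels. Correlations of their deviations ran from -0.154 to 0.0993, so the numbers were not taken to pair them. With the number as a replicate block the calls were 0, 9 and 2, and the share differences of -0.394, 2.53 and 1.91 had p of 1, 0.25 and 0.5 (exact permutation within blocks). Depth limits what single pairs can show, since 10 reads give steps of 10 points.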
